A study of Mus musculus with 12 samples.

Results

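The 6 libraries of mouse ventral hippocampus that combined SSDS with a virus were set against the 6 libraries that had neither, 6 of 12 libraries in the study on each side. The members of the comparison were taken from the column names and treatment labels alone, and each of 16915 genes was tested and asked whether all 6 values of one class lay above, or all below, the 6 values of the other. The SSDS class held 3 libraries of mice given AAV8-eGFP (SSDS-GFP) and 3 of mice whose hepatic ACOT12 was knocked down with a short hairpin (SSDS-shACOT12). The other class held 3 libraries of mice exposed to CSDS (CSDS) and 3 of untreated control mice (Control). All mice are labelled wild type, and strain, sex and age are not given. In this field CSDS and SSDS usually mean chronic and subthreshold social defeat stress, AAV8 is a viral vector that infects liver well, and TBG, which stands in the column names of the SSDS class only, usually names a promoter active in hepatocytes. Every SSDS library had the virus and no other library had either, so SSDS, the virus and any batch cannot be told apart in any value below.

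Several of the genes that differed belong to programs by which cells respond to misfolded protein or to strong stimulation. In the unfolded protein response, stress sensors of the endoplasmic reticulum raise the transcription of chaperones and folding enzymes that work in its lumen, partly through the transcription factor XBP1. The heat shock response does the same in the cytosol, where chaperones of the HSP70 and small heat shock families hold and refold proteins. Immediate early genes, among them the transcription factors of the FOS, JUN and EGR families, are transcribed within minutes of neuronal firing or of other strong stimuli and serve in the hippocampus as marks of recent activity.

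Library totals ran from 14656714 to 17694570 counts. On the first principal component, which held 31.3% of the variance, SSDS-GFP 3 (-35.7), SSDS-shACOT12 1 (-37.4) and SSDS-shACOT12 3 (-63.1) stood apart from the other 9 libraries, which lay between -5.82 and 30.4. The libraries of the SSDS class were less alike, with a median SD of log2 CPM within the group of 0.246 in SSDS-GFP and 0.308 in SSDS-shACOT12, against 0.157 in CSDS and 0.155 in Control. The number of genes with a count was 23400 ± 602 in the SSDS class and 24200 ± 382 in the others (SD, n = 6 each, exact permutation p = 0.013, adjusted over 5 library values 0.0649). The labels name ventral hippocampus as the tissue. Summed CPM of markers of its CA fields and subiculum ran from 1198 to 1607 in the SSDS class and from 1255 to 1516 in the others. For dentate gyrus markers it ran from 962 to 1419 in the SSDS class and from 1200 to 1782 in the others. Acot12, the gene targeted in liver, was near the limit of counting in hippocampus, with 0.191 to 0.525 CPM in the SSDS class and 0.406 to 0.845 CPM in the others, which checks nothing about the knockdown in liver.

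At an adjusted p under 0.05 in edgeR's quasi-likelihood test, 71 genes were higher in the SSDS class (0.42% of those tested) and 31 were lower (0.183%). Such genes are referred to as called. All 6 SSDS values lay above the other 6 for 211 genes (1.25%) and below them for 122 genes (0.721%). Both held for 56 higher genes (0.331%) and 19 lower genes (0.112%). The other 27 called genes, 15 higher and 12 lower, had at least 1 pair of libraries out of order, and 258 genes with no overlap, 155 higher and 103 lower, were not called. Of the called genes, 68 of the 71 higher and 22 of the 31 lower code for protein. The median log2 fold change was 0.58 for the called higher genes (0.39 to 2.27) and -0.72 for the called lower genes (-1.86 to -0.47).

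**Figure D1:**
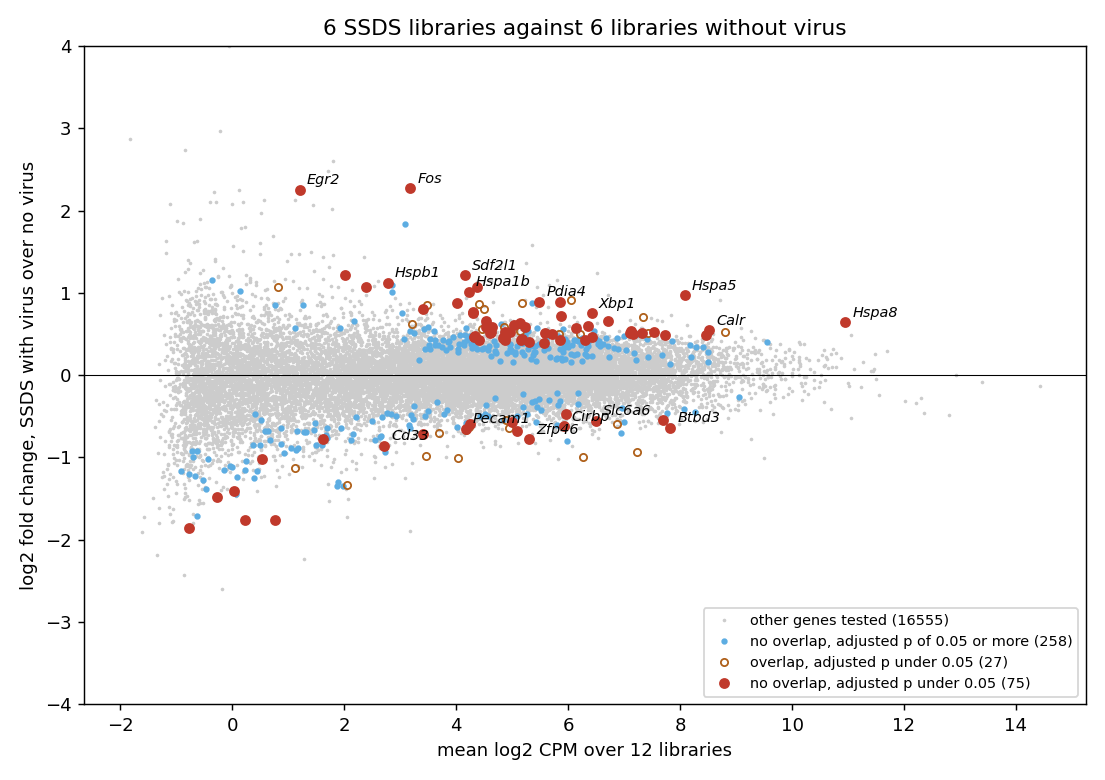
Log2 fold change of the SSDS class over the libraries without virus (y axis) against mean log2 CPM over 12 libraries (x axis), 1 point per gene tested. The 75 genes that were called and did not overlap are filled red, the 27 called genes that overlapped are open circles and the 258 genes that did not overlap and were not called are blue; 1 gene, which was not called, lies outside the plotted range.

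The count of calls rests closely on the threshold, since 298 further genes had an adjusted p of 0.05 or more and under 0.06, and on single libraries. Leaving out 1 library at a time gave 7 to 1604 genes higher and 2 to 1676 lower, most without SSDS-shACOT12 2 and fewest without CSDS 1, CSDS 3 or Control 1. Leaving out the 3 SSDS libraries that stood apart left SSDS-shACOT12 2 as the only library of its group. In that fit it weighed as much as SSDS-GFP 1 and SSDS-GFP 2 together. The medians given below without these 3 libraries therefore rest heavily on that 1 library. Libraries of the 2 SSDS groups that share a replicate number deviated together (r of 0.196 to 0.419 across genes), so they may not be fully independent. Pairs of different number across the classes reached 0.279, for SSDS-GFP 3 with Control 2. Each same-numbered SSDS pair was also summed, 3 sums against 6 libraries. In that fit 22 genes were called higher and 5 lower, with 23 of the 102 genes called in the main test among them. They held 7 of 30 members of the endoplasmic reticulum list, 4 of 29 of the heat shock list and 4 of 30 immediate early genes. They held 0 of 23 endothelial markers. This fit called 22 of 16915 genes higher and 5 lower, so the 0 says little about that list. With the replicate number as a block over all libraries 24 were called higher and 6 lower. All 102 genes kept their direction in every alternative that tested them. The alternatives use the libraries the genes were called in, and 75 of the 102 had no overlap. A reversal was therefore hardly possible, and its absence says little. Called in each of the 12 fits that left out a library were 9 genes: Sdf2l1, Pdia4, Hspa5, Dnajb1, Xbp1, Manf, Dusp1, Adgrf5 and Zfp46. Each other called gene, including those described below, lost its call in at least 1 of these fits. Of the 9, the 6 other than Dusp1, Adgrf5 and Zfp46 are chaperones, folding enzymes or regulators of protein folding.

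Some chaperones and folding factors of the endoplasmic reticulum were called higher in the SSDS class. The list used also held genes that are not chaperones or folding factors themselves, among them Xbp1 and Cdk2ap2, both called higher. Of 30 tested members of the list, 9 were called higher and 0 lower (0.42% and 0.183% of all genes), 21 did not pass the test, and 12 did not overlap, all of them higher (1.25% of all genes). The median log2 fold change of the 30 was 0.42, against 0.01 over all genes tested, and 27 were above 0. Their summed level was 3190 to 3716 CPM in the SSDS libraries, 2598 to 3033 CPM in CSDS and 2405 to 2476 CPM in Control, with no overlap between the classes.

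Sdf2l1, which encodes a lumenal partner of the chaperone BiP (ENSMUSG00000022769, mm10 chr16:17130138-17132383), had the smallest p of all genes. Its level was 30.8, 25.6 and 25.4 CPM in SSDS-GFP and 26.0, 25.3 and 28.3 CPM in SSDS-shACOT12, against 14.8, 15.3 and 11.8 CPM in CSDS and 9.48, 9.28 and 10.2 CPM in Control. The lowest SSDS library was well above the highest of the others, and the Control libraries were the lowest. The log2 fold change was 1.21 ± 0.10 (adjusted p = 0.000227), or 2.32-fold. It was the one gene named here that was called in all 29 alternatives.

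Hspa5 encodes BiP itself, the main HSP70 chaperone of the endoplasmic reticulum (ENSMUSG00000026864, chr2:34771970-34777547). It had 413, 423 and 376 CPM in SSDS-GFP and 336, 374 and 367 CPM in SSDS-shACOT12, against 238, 254 and 173 CPM in CSDS and 173, 170 and 170 CPM in Control. CSDS 3 sat at the Control level and the other CSDS libraries between Control and SSDS. The log2 fold change was 0.97 ± 0.10 (adjusted p = 0.00111). Because the start regions of endoplasmic reticulum chaperone genes are known for a shared element that the unfolded protein response acts through, the promoters of called members in which that element was found are shown. They are RefSeq sequence of build GRCm38.p6, from 250 bases before to 50 bases after the annotated start, 5′ to 3′ on the strand of the gene, with the match in capitals. The element ERSE was searched on both strands as CCAAT, then 9 free bases, then CCACG. Hspa5 lies at chr2:34771840-34772139 on the plus strand, Calr at chr8:84846882-84847181 on the minus strand and Creld2 at chr15:88819396-88819695 on the plus strand. Herpud1, at chr8:94386179-94386478 on the plus strand, is shown with the related element ERSE-II, searched as ATTGG, then 1 free base, then CCACG.
Hspa5: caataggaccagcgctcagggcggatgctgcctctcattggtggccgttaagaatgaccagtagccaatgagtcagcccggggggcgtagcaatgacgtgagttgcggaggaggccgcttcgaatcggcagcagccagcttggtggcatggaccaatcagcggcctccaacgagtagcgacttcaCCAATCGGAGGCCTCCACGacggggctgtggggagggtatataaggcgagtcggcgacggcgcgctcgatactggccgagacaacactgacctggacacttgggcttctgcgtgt
Calr: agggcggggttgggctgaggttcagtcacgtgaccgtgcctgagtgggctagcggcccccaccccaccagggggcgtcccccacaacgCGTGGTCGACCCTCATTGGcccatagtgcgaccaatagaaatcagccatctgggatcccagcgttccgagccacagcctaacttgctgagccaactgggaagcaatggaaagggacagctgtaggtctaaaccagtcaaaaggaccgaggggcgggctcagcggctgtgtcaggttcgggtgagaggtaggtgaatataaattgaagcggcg
Creld2: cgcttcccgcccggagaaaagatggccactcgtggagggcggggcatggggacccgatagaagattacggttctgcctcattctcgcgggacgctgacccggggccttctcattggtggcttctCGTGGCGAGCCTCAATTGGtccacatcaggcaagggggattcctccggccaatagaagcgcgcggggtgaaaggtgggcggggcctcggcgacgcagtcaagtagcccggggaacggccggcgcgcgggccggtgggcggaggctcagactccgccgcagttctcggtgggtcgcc
Herpud1: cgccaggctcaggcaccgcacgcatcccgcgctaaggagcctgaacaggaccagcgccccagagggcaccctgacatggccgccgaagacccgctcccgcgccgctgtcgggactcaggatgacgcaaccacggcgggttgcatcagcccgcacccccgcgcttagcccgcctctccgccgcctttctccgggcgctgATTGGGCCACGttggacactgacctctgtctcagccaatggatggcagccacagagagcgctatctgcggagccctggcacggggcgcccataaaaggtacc
The match starts at position -65 in Hspa5, -162 in Calr, -126 in Creld2 and -52 in Herpud1, and in Calr and Creld2 it reads on the opposite strand. Both elements contain the CCAAT box on one strand or the other, so each match is also a CCAAT match. ERSE was in 0.119% of the 32851 promoters of the table and ERSE-II in 0.0365%. Of the 27 list members with a promoter in the table, 9 had ERSE and 2 had ERSE-II, and of the 8 called members with one, 3 and 1 did. The other called members with a promoter, among them Sdf2l1, Pdia4 and Xbp1, had neither, which says only that these letters are not in that window.

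Pdia4, a protein disulfide isomerase of the lumen, had 52.1 to 69.0 CPM in the SSDS class (median 62.6) and 27.1 to 41.2 CPM in the others (median 31.5). Its log2 fold change was 0.89 ± 0.09 (adjusted p = 0.00111). Manf, a secreted factor retained in the endoplasmic reticulum by BiP, had 90.1, 79.6 and 80.7 CPM in SSDS-GFP and 66.8, 73.7 and 62.7 CPM in SSDS-shACOT12, against 53.2, 54.2 and 48.8 CPM in CSDS and 37.5, 40.7 and 41.2 CPM in Control. For Manf the 4 groups did not overlap at all and ran from SSDS-GFP down to Control, with a log2 fold change of 0.72 ± 0.08 between the classes (adjusted p = 0.00167). The difference between SSDS-shACOT12 and SSDS-GFP was -0.30 ± 0.11, and no called gene passed the test in that contrast (smallest adjusted p = 0.803, and 0.15 with the number of the SSDS library as a block).

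The other 5 called members of the list were named after their values were seen. Xbp1, the transcription factor of the response, had 98.6 to 117 CPM in the SSDS class and 53.7 to 82.3 CPM in the others, a log2 fold change of 0.75 ± 0.08 (adjusted p = 0.00167). Creld2, an inducible lumenal factor, rose by 0.75 ± 0.10 (adjusted p = 0.0112) and Calr, the calcium-binding lectin chaperone calreticulin, by 0.55 ± 0.08 (adjusted p = 0.0144). Herpud1, a component of degradation at the reticulum membrane, rose by 0.50 ± 0.08 (adjusted p = 0.0261). Cdk2ap2, which is on the list but is not itself a chaperone or folding factor, rose by 0.77 ± 0.12 (adjusted p = 0.0197). None of these 5 overlapped between the classes.

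Hyou1, Dnajb11 and P4hb, a large HSP70-like chaperone, a BiP cochaperone and a disulfide isomerase, did not overlap and were not called, with adjusted p of 0.0536, 0.0574 and 0.0725. Hsp90b1, the HSP90 of the lumen, had a log2 fold change of 0.42 ± 0.09 (adjusted p = 0.0562) and overlapped. Other members stayed near 0, such as Canx at 0.03 (adjusted p = 0.892) and the quality control factor Edem1 at -0.02 (adjusted p = 0.895), and Dnajb9, a BiP cochaperone, was at -0.19 (adjusted p = 0.612). The number of members called higher ran from 5 to 20 when 1 library was left out, beside 7 to 1604 of all genes. The 20 came from the fit without SSDS-shACOT12 2, which called 1604 of 17292 genes higher. The list's median ran from 0.37 to 0.45.

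**Figure D2:**
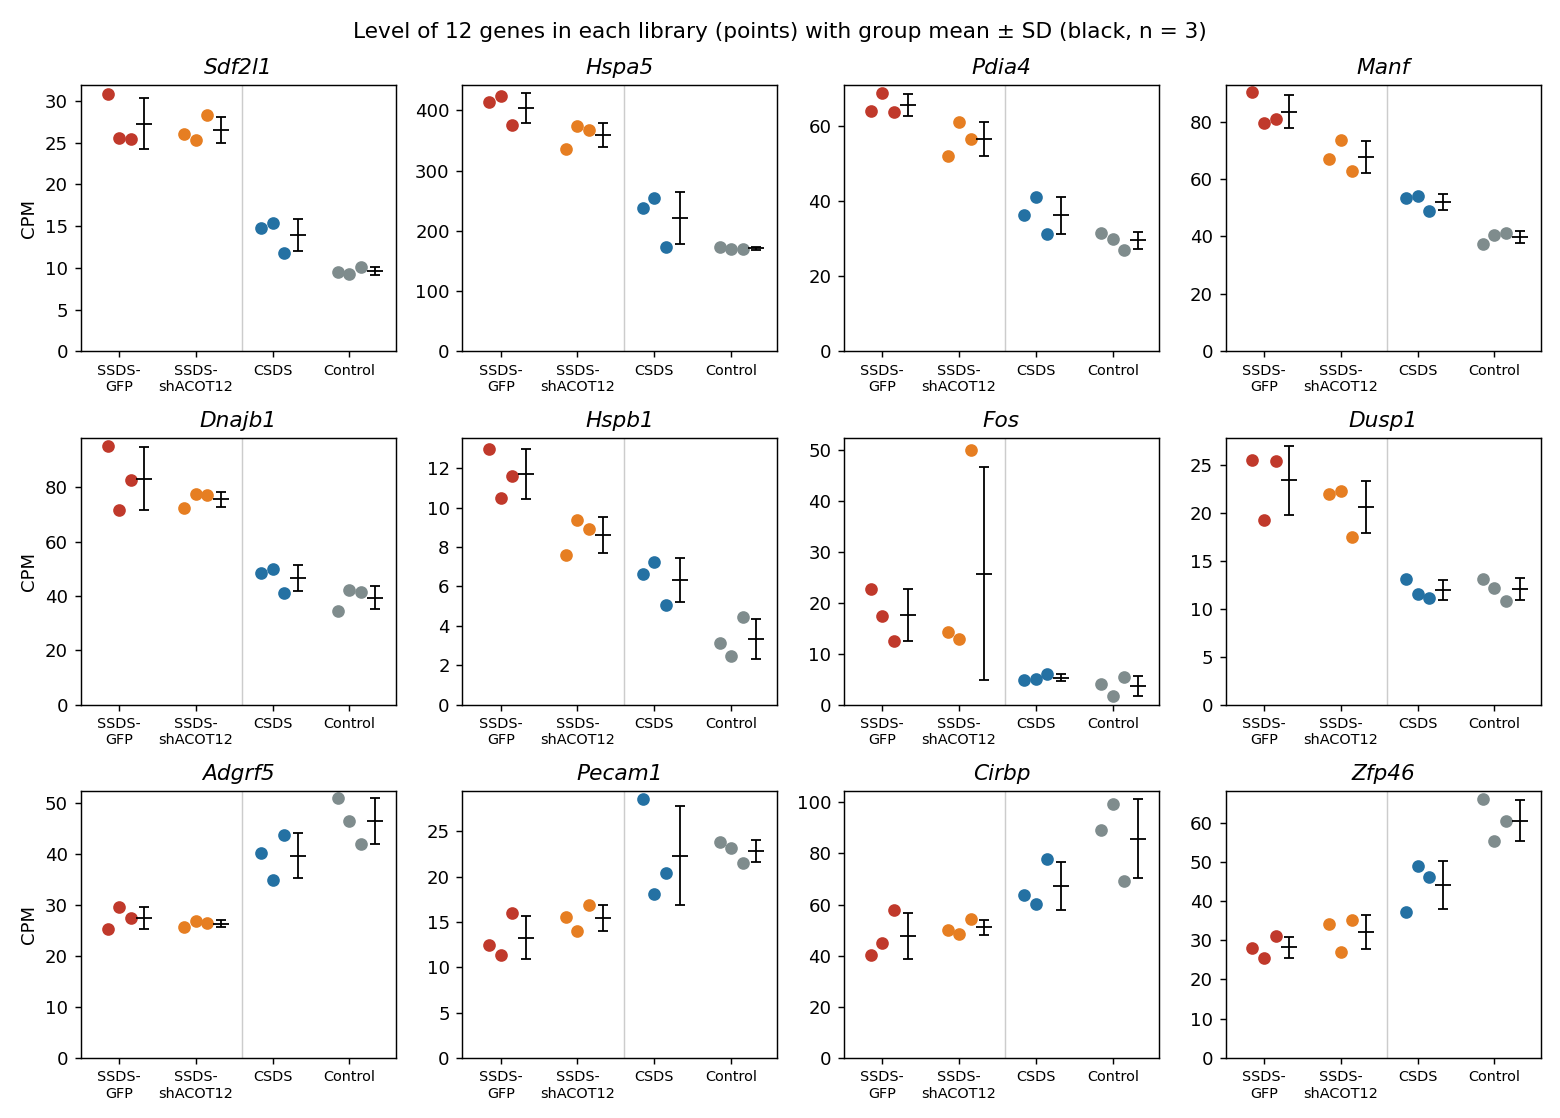
CPM (y axis, from 0) of 12 genes in each of the 12 libraries (points), by group, with the group mean ± SD beside them (black, n = 3). The SSDS groups lie left of the grey line: the 8 genes of the upper 2 rows are higher there in every library, with Fos reaching 49.99 CPM in SSDS-shACOT12 3, and the 4 genes of the bottom row are lower in every library.

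A list of heat shock proteins and cochaperones, mostly of the cytosol, also held called genes. Of 29 tested members 8 were called higher and 0 lower (0.42% and 0.183% of all genes), 21 did not pass the test, and 10 did not overlap, all higher (1.25% of all genes). The median log2 fold change was 0.34, with 24 members above 0 and 5 below. The summed level of the list, which includes the mitochondrial Hspd1, Hspe1 and Hspa9, was 8097 to 10140 CPM in the SSDS class and 6552 to 8005 CPM in the others.

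Hspb1, a small heat shock protein that binds unfolded proteins, had 13, 10.5 and 11.6 CPM in SSDS-GFP and 7.61, 9.36 and 8.92 CPM in SSDS-shACOT12, against 6.64, 7.26 and 5.07 CPM in CSDS and 3.12, 2.47 and 4.46 CPM in Control. The gap between the classes was narrow, between 7.61 and 7.26 CPM, and the groups stepped down from SSDS-GFP to Control. The log2 fold change was 1.12 ± 0.16 (adjusted p = 0.0122). Against CSDS alone it was 0.67 ± 0.20 (adjusted p = 0.511) and against Control alone 1.58 ± 0.21 (adjusted p = 0.00651).

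Dnajb1, the cytosolic HSP40 that delivers clients to HSP70, had 71.6 to 95.0 CPM in the SSDS class (median 77.2) and 34.4 to 50.1 CPM in the others (median 41.7), a log2 fold change of 0.89 ± 0.10 (adjusted p = 0.00167). Hspa1b, a stress-inducible HSP70, had 17.6 to 43.2 CPM in the SSDS class and 11.0 to 15.96 CPM in the others, with SSDS-GFP 1 the highest library. Its log2 fold change was 1.01 ± 0.18 (adjusted p = 0.0339). Its near-identical neighbour Hspa1a had 10.8 to 22.6 CPM and 5.45 to 9.09 CPM in the same order, a log2 fold change of 0.79 ± 0.17 (adjusted p = 0.0536), and reads of this pair cannot be assigned to either with certainty. Hspa8, the constitutive HSP70 of the cytosol, had 2257 to 2782 CPM in the SSDS class and 1447 to 1992 CPM in the others, a log2 fold change of 0.64 ± 0.10 (adjusted p = 0.0184).

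The cochaperones of HSP90 Ahsa1, Fkbp4 and Stip1 and the small heat shock protein Cryab made up the rest of the called members. Ahsa1 rose by 0.53 ± 0.09 (adjusted p = 0.0244). The other 3 were named after their values were seen: Fkbp4 rose by 0.51 ± 0.10, Stip1 by 0.48 ± 0.09 and Cryab by 0.59 ± 0.11 (adjusted p = 0.0424 for each). Hsp90aa1, the inducible HSP90 itself, had 875 to 1543 CPM in the SSDS class and 919 to 1243 CPM in the others, so that the SSDS libraries lay both above and below the rest (log2 fold change 0.18 ± 0.14, adjusted p = 0.482). The mitochondrial chaperones Hspd1, Hspe1 and Hspa9 had log2 fold changes of 0.02, 0.36 and -0.16 (adjusted p = 0.955, 0.0887 and 0.274). With 1 library left out, 1 to 15 members of the list were called higher, beside 7 to 1604 of all genes. The 15 came from the fit that called 1604 genes higher. A heat shock element was searched on both strands as 3 alternating GAA and TTC blocks with 2 free bases between them. It was in the promoters of 5 of 23 list members and of 0 of the 6 called members in the table, against 0.662% of all genes with a promoter. The 0 says only that these exact letters are not in that window.

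Immediate early genes included the 2 called higher genes with the largest fold changes, Fos and Egr2. Of 30 tested members 6 were called higher and 0 lower (0.42% and 0.183% of all genes), and 7 did not overlap, all higher (1.25% of all genes). The median log2 fold change was 0.65 and 29 members were above 0, while the summed level overlapped, at 1251 to 2613 CPM in the SSDS class and 900 to 1310 CPM in the others.

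Fos (ENSMUSG00000021250), the transcription factor most used as a mark of neuronal activity, had 22.8, 17.5 and 12.6 CPM in SSDS-GFP and 14.4, 12.99 and 49.99 CPM in SSDS-shACOT12, against 4.89, 4.99 and 6.04 CPM in CSDS and 3.98, 1.62 and 5.35 CPM in Control. SSDS-shACOT12 3 was the highest by far, and the lowest SSDS library was above every library without virus. The log2 fold change was 2.27 ± 0.36 (adjusted p = 0.0197), and 1.80 without SSDS-shACOT12 3 (adjusted p = 0.0122). Egr2, a zinc finger factor of the EGR family, had 2.17 to 8.45 CPM in the SSDS class and 0.663 to 1.49 CPM in the others, a log2 fold change of 2.25 ± 0.37 (adjusted p = 0.0269).

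Dusp1, a phosphatase that switches off MAP kinases, had the smallest p of the list. Its levels were 25.5, 19.2 and 25.4 CPM in SSDS-GFP and 21.96, 22.3 and 17.5 CPM in SSDS-shACOT12, against 13.1, 11.6 and 11.1 CPM in CSDS and 13.1, 12.1 and 10.8 CPM in Control. The CSDS and Control libraries were alike and both far below the SSDS class, with a log2 fold change of 0.87 ± 0.11 (adjusted p = 0.00605). Because the cyclic AMP response element is a known site of activity-driven transcription, the promoter of Dusp1, the 1 called immediate early gene in which it was found, is shown. It lies at chr17:26508423-26508722 on the minus strand (RefSeq, GRCm38.p6), with the element TGACGTCA, which reads the same on both strands, in capitals.
Dusp1: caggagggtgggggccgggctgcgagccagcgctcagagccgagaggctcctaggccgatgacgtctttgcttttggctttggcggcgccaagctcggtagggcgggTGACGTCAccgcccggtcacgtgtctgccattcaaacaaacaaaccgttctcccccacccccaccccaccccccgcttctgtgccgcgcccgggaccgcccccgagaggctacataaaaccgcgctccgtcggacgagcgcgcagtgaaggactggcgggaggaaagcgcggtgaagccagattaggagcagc
The match starts at position -143, and 1.79% of all promoters in the table hold the element, or 2.83% of those of the genes tested. It was found in 2 of 22 immediate early genes and 2 of 58 called higher genes with a promoter, against 3.42% of tested genes.

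Gadd45b, a stress-inducible regulator of DNA demethylation and of MAP kinase signalling, had 22.4 to 52.2 CPM in the SSDS class and 11.3 to 17.9 CPM in the others, with SSDS-shACOT12 3 the highest (log2 fold change 1.07 ± 0.20, adjusted p = 0.0424). Jun and Junb, AP-1 partners of FOS, lay on either side of the rule of no overlap. The lowest SSDS value of Jun was 145 CPM and the highest of the others 144 CPM (log2 fold change 0.50 ± 0.10, adjusted p = 0.0467). The lowest SSDS value of Junb was 58.4 CPM and the highest of the others 59.2 CPM (log2 fold change 0.92 ± 0.17, adjusted p = 0.0424).

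Fosb did not overlap but was not called. SSDS-shACOT12 3 reached 83.7 CPM, the other SSDS libraries had 8.40 to 11.6 CPM, and the libraries without virus 3.71 to 7.18 CPM (log2 fold change 1.84 ± 0.48, adjusted p = 0.0684). Arc, which encodes a capsid-like protein of dendrites, had a log2 fold change of 1.24 ± 0.29 (adjusted p = 0.0571), and Npas4 and Egr3 had 0.56 and 0.06 (adjusted p = 0.332 and 0.895). With 1 library left out, 1 to 18 members of the list were called higher, beside 7 to 1604 of all genes. The 18 came from the fit that called 1604 genes higher. Nfil3, a circadian repressor of transcription, was the 1 called member of 21 circadian genes (log2 fold change 0.85 ± 0.16, adjusted p = 0.0424). It overlapped between the classes. Of the 27 glucocorticoid responsive genes Dusp1 alone was called, beside 0.42% of all genes called higher.

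The integrated stress response list, which covers the branch of protein stress signalling through eIF2α and ATF4, had 0 of 24 members called by edgeR's quasi-likelihood test. Its median log2 fold change was 0.18, and 0.02 without the 3 libraries that stood apart. It held 1 member without overlap, which was lower (0.721% of all genes). That member was Eif2ak2, the kinase that senses double-stranded RNA, with 2.85 to 4.53 CPM in the SSDS class and 4.70 to 8.02 CPM in the others (adjusted p = 0.0562). Atf4 and Ddit3, its central transcription factors, had log2 fold changes of 0.38 ± 0.10 for Atf4 and 0.47 ± 0.11 for Ddit3 (adjusted p = 0.0694 and 0.0574). Atf3 had 8.24 CPM in SSDS-shACOT12 3 and 18.4 CPM in SSDS-GFP 3, against 0.604 to 1.90 CPM in the libraries without virus, while the other 4 SSDS libraries had 1.59 to 2.04 CPM.

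**Figure D3:**
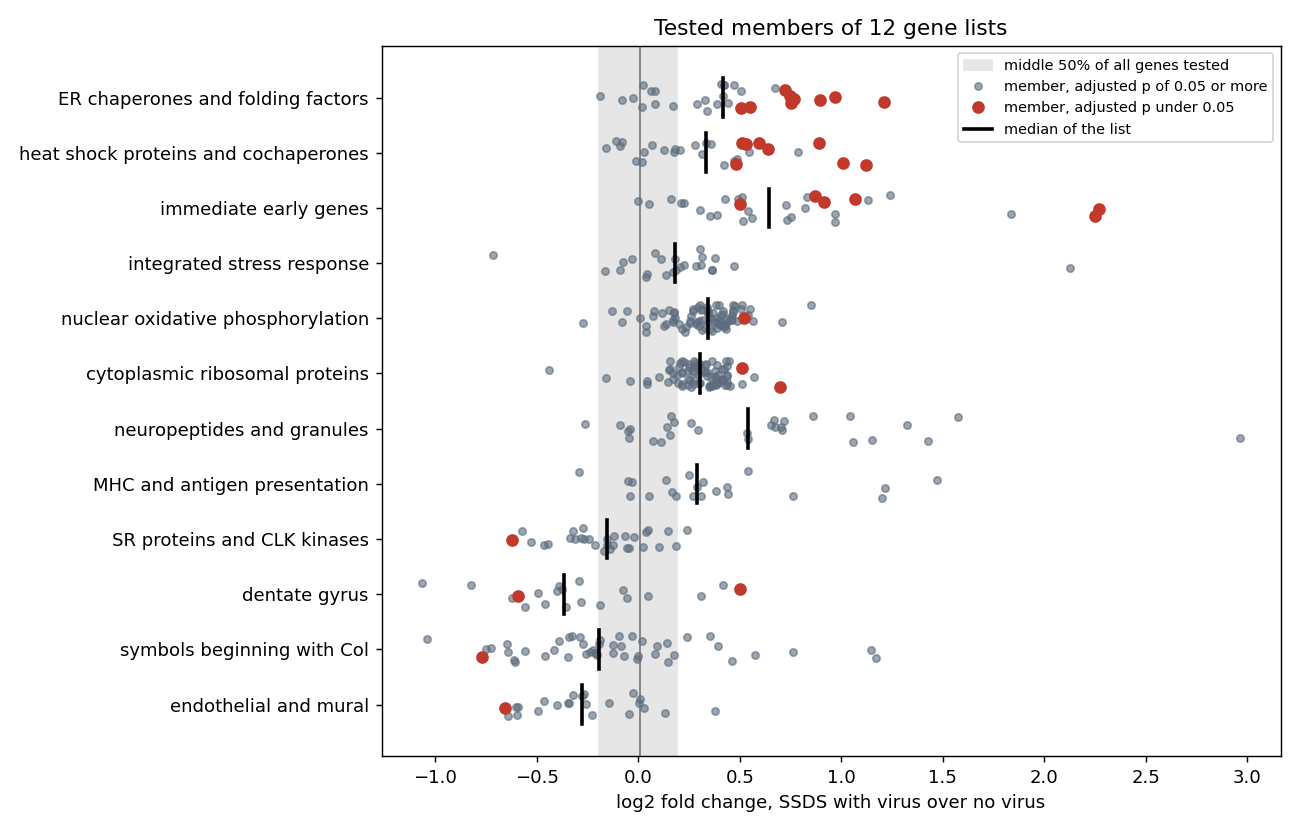
Log2 fold change of the SSDS class over the libraries without virus (x axis) for the tested members of 12 gene lists (rows), with called members in red, the list's median as a black bar and the middle 50% of all genes tested shaded. The 3 lists at the top have medians of 0.42, 0.34 and 0.65 and hold 23 of the red points.

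Further genes were called higher outside these lists. Bfsp2, known as a lens filament protein, had 6.37 to 10.0 CPM in the SSDS class and 2.60 to 5.12 CPM in the others (log2 fold change 1.08 ± 0.18, adjusted p = 0.0288). Rtl5, a gene derived from a retrotransposon, had 10.2 to 16.6 CPM and 6.72 to 9.36 CPM in the same order (0.80 ± 0.14, adjusted p = 0.0338). The processed transcript 1700016P03Rik had 4.35 to 7.37 CPM in the SSDS class and 1.30 to 3.51 CPM in the others (1.21 ± 0.20, adjusted p = 0.0288). Rpl37rt, annotated as a transcribed pseudogene of a ribosomal protein, rose by 0.61 ± 0.11 (adjusted p = 0.0396), and its reads may belong to the parent gene.

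Genes of protein synthesis and respiration were called higher in small numbers, beside 0.42% of all genes. Cox7b, a subunit of cytochrome c oxidase, rose by 0.52 ± 0.10 (adjusted p = 0.0439) as the 1 called member of 84 nuclear genes of oxidative phosphorylation, whose median was 0.34 with 80 above 0. Among 82 cytoplasmic ribosomal protein genes, with a median of 0.31 (0.17 without the 3 libraries that stood apart) and 79 above 0, Rpl38 rose by 0.70 ± 0.13 (adjusted p = 0.0424) and Rpl35 by 0.51 ± 0.10 (adjusted p = 0.0467), and both overlapped between the classes. Among 77 mitochondrial ribosomal protein genes Mrps6 rose by 0.80 ± 0.15 and Mrpl14 by 0.59 ± 0.12 (adjusted p = 0.0424 and 0.0448). Mrps6 overlapped between the classes and Mrpl14 did not. The 13 genes encoded in mitochondrial DNA had a median of -0.34, which was 0.14 without the 3 libraries that stood apart, and 0 of them were called.

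The median change moved with gene length. Over 8 bins of gene length genes of the shortest bin had a median log2 fold change of 0.16 and those of the longest -0.11, with 0.12, 0.07, 0.05, 0.02, -0.02 and -0.07 in the 6 bins between them from short to long. Called higher genes numbered 18 in the shortest bin and 1 in the longest, and called lower genes 4 in each. The slope of log2 CPM per doubling of gene length was -0.0247 ± 0.0384 in the SSDS class and 0.0247 ± 0.0303 in the others (SD, n = 6 each, exact permutation p = 0.0346, adjusted 0.0866). With each library's trend with length removed, 42 genes were called higher and 20 lower, 55 of the 102 among them, and the medians of the endoplasmic reticulum, heat shock and immediate early lists were 0.39, 0.27 and 0.46. In the same fit the medians were 0.23 for nuclear oxidative phosphorylation and 0.21 for cytoplasmic ribosomal proteins.

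Lower genes were fewer and of several kinds. Adgrf5 (ENSMUSG00000056492, chr17:43360451-43459557), an adhesion receptor found on endothelium, had the smallest p of the lower genes. Its levels were 25.3, 29.5 and 27.4 CPM in SSDS-GFP and 25.6, 26.9 and 26.5 CPM in SSDS-shACOT12, against 40.3, 34.95 and 43.8 CPM in CSDS and 51.0, 46.4 and 41.9 CPM in Control. The 6 SSDS libraries were close together and all below the rest, with a log2 fold change of -0.68 ± 0.09 (adjusted p = 0.0072).

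Pecam1, an adhesion molecule of endothelial junctions, had 11.3 to 16.9 CPM in the SSDS class (median 14.8) and 18.1 to 28.6 CPM in the others (median 22.3), and fell by 0.65 ± 0.13 on the log2 scale (adjusted p = 0.0424). It was the 1 called member of 23 endothelial and mural markers, beside 0.183% of all genes called lower. Of the 23, 18 were below 0 and the median was -0.28. Slco1a4, a transporter of the blood-brain barrier, did not overlap either (log2 fold change -0.60 ± 0.13, adjusted p = 0.0518). Cldn5, a tight junction protein of the same cells, was at 0.38 ± 0.14 (adjusted p = 0.136) and Cdh5 at 0.03 (adjusted p = 0.91). The summed level of the list was 691 to 891 CPM in the SSDS class and 762 to 996 CPM in the others, and no marker on the list was at 0 in any library. With 1 library left out, 0 to 6 of the 23 were called lower, beside 2 to 1676 of all genes. The 6 came from the fit without SSDS-shACOT12 2, which called 1676 of 17292 genes lower. In bulk tissue fewer cells of a type and less RNA per cell cannot be told apart.

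Other called lower genes with vascular or matrix roles were Col4a5, a chain of basement membrane collagen, and Jcad, a protein of endothelial junctions. Col4a5 had 1.95 to 2.54 CPM in the SSDS class and 3.08 to 4.28 CPM in the others (log2 fold change -0.77 ± 0.15, adjusted p = 0.0424). It was the 1 called among 47 genes whose symbols begin with Col, beside 0.183% of all genes called lower. The median of the 47 was -0.19, and -0.39 without the 3 libraries that stood apart. Jcad had 41.1 to 58.6 CPM in the SSDS class and 66.7 to 77.5 CPM in the others (-0.47 ± 0.09, adjusted p = 0.0467). Heg1 and Podxl, which act in vessels and in the coat of endothelial cells, fell by 0.64 ± 0.12 and 0.54 ± 0.11 with an overlap between the classes (adjusted p = 0.0419 and 0.0427), and were named after their values were seen.

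Cd33, a sialic acid receptor of microglia and other myeloid cells, had 4.02 to 5.73 CPM in the SSDS class and 7.79 to 10.2 CPM in the others (log2 fold change -0.86 ± 0.14, adjusted p = 0.0244). None of the 26 microglia markers on the list was called by edgeR's quasi-likelihood test, and their median was 0.04 with a summed level of 2790 to 3889 CPM in the SSDS class and 2701 to 3188 CPM in the others.

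Zfp46, a zinc finger gene (ENSMUSG00000051351, chr4:136284683-136293942), had 28.1, 25.5 and 31.0 CPM in SSDS-GFP and 34.2, 27.1 and 35.1 CPM in SSDS-shACOT12, against 37.3, 48.8 and 46.1 CPM in CSDS and 66.0, 55.4 and 60.3 CPM in Control. CSDS lay between the SSDS class and Control, and the log2 fold change was -0.78 ± 0.10 (adjusted p = 0.00737). Among 355 tested genes named Zfp, 3 were called lower (0.183% of all genes), and the median was -0.08. They were Zfp46, Zfp810 (-0.59 ± 0.11, adjusted p = 0.0424) and Zfp799 (-0.66 ± 0.13, adjusted p = 0.0445). Zfp799 overlapped between the classes.

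The lower genes included Cirbp and Hnrnpdl, which encode RNA-binding proteins. Cirbp, whose product is induced by cold and binds RNA, had 40.4 to 57.9 CPM in the SSDS class and 60.3 to 99.3 CPM in the others (log2 fold change -0.62 ± 0.12, adjusted p = 0.0424). Hnrnpdl, a member of the hnRNP family, had 130 to 198 CPM in the SSDS class and 219 to 282 CPM in the others (-0.54 ± 0.10, adjusted p = 0.0424). Srsf5, a splicing factor, did not overlap, with 142 to 229 CPM in the SSDS class and 242 to 285 CPM in the others, and was not called (-0.46 ± 0.12, adjusted p = 0.0602). Of 30 SR proteins and related genes 1 was called lower, and of 20 hnRNP genes 1 (0.183% of all genes). The SR list had a median of -0.15, which was -0.015 without the 3 libraries that stood apart. The hnRNP list had a median of 0.01, with 10 members above 0 and 10 below.

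The neuronal genes Btbd3, which orients dendrites, and Stx3, a membrane fusion protein of the syntaxin family, were lower. Btbd3 had 142 to 225 CPM in the SSDS class and 230 to 408 CPM in the others (log2 fold change -0.64 ± 0.12, adjusted p = 0.0424). Stx3 fell by 0.56 ± 0.12 (adjusted p = 0.0474), and SSDS-GFP 2, at 35.1 CPM, was the SSDS library nearest to the others, whose lowest was 35.8 CPM. Slc6a6, the taurine transporter, had 61.7 to 87.7 CPM in the SSDS class and 91.7 to 134 CPM in the others (-0.55 ± 0.10, adjusted p = 0.0396). Stxbp6, a dentate gyrus marker, fell by 0.59 ± 0.11 with an overlap (adjusted p = 0.0424). Jun, described above, is on the same list and was called higher. The 20 dentate gyrus markers had a median of -0.37 with 16 below 0 and a summed level of 962 to 1419 CPM in the SSDS class and 1200 to 1782 CPM in the others. The part of these markers in the value of Stxbp6 was not tested.

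The intergenic transcript Gm21781 had 5.99 to 9.65 CPM in the SSDS class and 11.4 to 14.7 CPM in the others (log2 fold change -0.72 ± 0.13, adjusted p = 0.0339). It was the 1 noncoding gene with a mean log2 CPM over 1 that was called lower without overlap. Of the 31 called lower genes 9 do not code for protein, against 3 of the 71 called higher. Among the genes that overlapped and were not called, 2453 do not code for protein and 14102 do.

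Hbb-bs, a beta globin, was called lower (log2 fold change -0.99 ± 0.17, adjusted p = 0.0338), but its level split the libraries without virus. It had 35.1 to 87.8 CPM in the SSDS class, against 222, 173 and 201 CPM in CSDS and 50.9, 69.9 and 65.7 CPM in Control. The log2 fold change was -1.83 ± 0.20 against CSDS alone (adjusted p = 0.00798) and -0.15 ± 0.21 against Control alone (adjusted p = 0.681). Globin genes are near copies of each other, and reads may be shared among them.

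The class without virus pools 2 groups, and the SSDS libraries were also set against each of them. Against Control alone 313 genes were called higher (1.85%) and 213 lower (1.26%), and against CSDS alone 1 higher (0.00591%) and 2 lower (0.0118%), with 4027 and 1495 genes at an unadjusted p under 0.05. Both comparisons use the same 6 SSDS libraries, and the difference between CSDS and Control had 0 genes called by edgeR's quasi-likelihood test, with 993 at an unadjusted p under 0.05. The 3 genes called against CSDS were Sdf2l1 (log2 fold change 0.95 ± 0.12, adjusted p = 0.0189), Hbb-bs and another beta globin, Hbb-bt (-2.02 ± 0.26, adjusted p = 0.0189).

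Hspa5 was 0.78 ± 0.12 higher than in CSDS (adjusted p = 0.0646) and 1.16 ± 0.13 higher than in Control (adjusted p = 0.00225) on the log2 scale. Manf was 0.53 ± 0.10 higher than in CSDS (adjusted p = 0.172) and 0.92 ± 0.10 higher than in Control (adjusted p = 0.00225). Dusp1 had the same size against both, 0.88 ± 0.14 against CSDS (adjusted p = 0.0646) and 0.87 ± 0.14 against Control (adjusted p = 0.0287). Adgrf5 was at -0.56 ± 0.11 against CSDS (adjusted p = 0.172) and -0.79 ± 0.10 against Control (adjusted p = 0.00651), and Pecam1 at -0.64 ± 0.15 and -0.67 ± 0.15 (adjusted p = 0.411 and 0.0396).

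**Figure D4:**
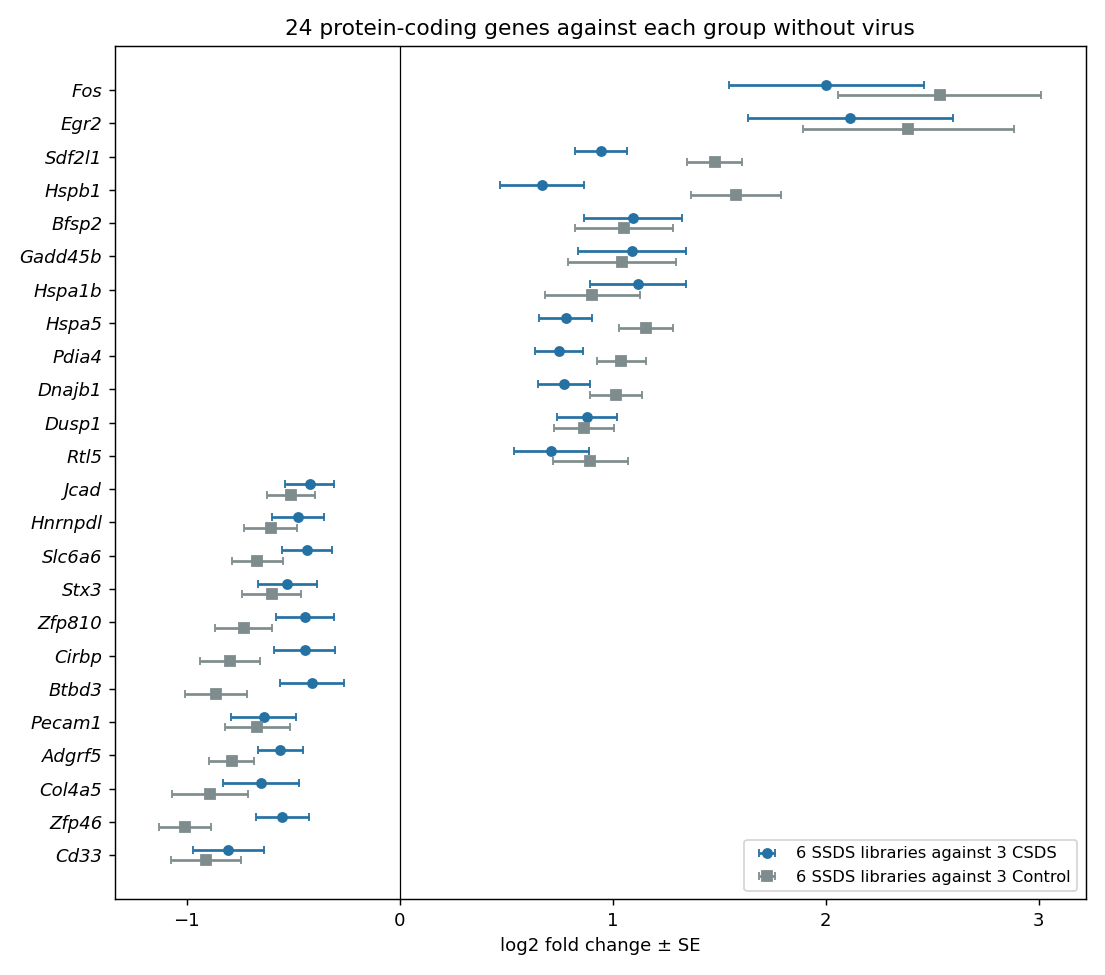
Log2 fold change ± SE (x axis) of the 24 protein-coding genes named for the largest changes, for the 6 SSDS libraries against 3 CSDS libraries (blue circles) and against 3 Control libraries (grey squares). Both comparisons share the SSDS libraries. Sdf2l1 is at 0.95 against CSDS and 1.48 against Control, Bfsp2 at 1.10 and 1.05, and Zfp46 at -0.55 and -1.01.

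Many lists had no called gene by edgeR's quasi-likelihood test. These included interferon response (33 tested, median log2 fold change 0.02), inflammatory cytokines and NF-kB (26, 0.19), astrocytes (22, 0.09), oligodendrocyte lineage and myelin (24, 0.04), glutamate receptors (34, -0.04), acetyl-CoA and acetate metabolism (33, 0.08), glycolysis (20, 0.21) and proteasome (38, 0.21). The median of the interferon list was -0.38 without SSDS-GFP 3 alone and -0.50 without the 3 libraries that stood apart. Without those 3 it was -0.16 for the inflammatory list, -0.12 for astrocytes, 0.14 for the oligodendrocyte list and 0.06 for glycolysis. Neuropeptide and granule genes had a median of 0.54 over 29 genes with 0 called, and the median was 0.22 without SSDS-shACOT12 3 alone. MHC and antigen presentation genes had a median of 0.29 over 21 genes, which was -0.34 without SSDS-GFP 3 alone. Choroid plexus markers summed to 91.0 to 193 CPM in the SSDS class, 119 to 148 CPM in CSDS and 154 to 833 CPM in Control. The highest sums were those of Control 1 (833 CPM) and Control 2 (295 CPM). Their median over 11 genes was -0.45, with 0 called, and it was -0.09 against CSDS alone and -0.81 against Control alone.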

How the data were processed

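Total RNA of ventral hippocampus was sequenced in 12 mouse libraries, each made from 1 µg of RNA. The library kit, NEBNext Ultra RNA, is not named as a stranded one, so a gene and its antisense partner cannot be separated. The submitters' processing notes name HISAT2 2.0.5 for alignment, mm10 as the genome, featureCounts 1.5.0-p3 for counting and DESeq2 without a version. How strand was set, which annotation was used and what was filtered is not given in the sources used here. The count table the authors deposited holds unscaled integers for each gene. The FPKM values deposited by the authors, with gene length in bases per the file headers, entered only alternatives and levels per length. Every sample column was used, and 27 symbols turned into dates were restored by gene ID.

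In R 4.3.3, the filterByExpr function of edgeR 4.0.16, with a minimum of 10 counts and a total of 15, left 16915 of 54532 genes. Libraries were scaled by TMM, and levels are CPM of the scaled library. edgeR's quasi-likelihood model with the 4 groups was fitted to all 12 libraries, and the mean of the SSDS groups minus the mean of CSDS and Control was tested 2-sided, with Benjamini-Hochberg adjustment over all genes tested and a threshold of 0.05. The adjusted p-values of genes come from this test unless another is named. Errors of log2 fold changes are SE, and errors of CPM are SD. Values of whole libraries were set 6 against 6 with an exact 2-sided permutation test, whose smallest p is 0.00216. The procedure was tested on simulated data.

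The comparison and its gene lists were chosen with earlier results of these data known, so no list counts as independent support. The genes named were the 12 protein-coding and up to 4 other genes with the largest change each way that were called, did not overlap and had a mean log2 CPM of at least 1, and up to 4 called members of each list. Further called genes are named where a count is made of them. Nothing in the labels ties each library to its own animal, and the p-values therefore cover the spread between libraries only, which may be technical. Deviations from the group means had r of 0.196 to 0.419 in the 3 pairs of SSDS-GFP and SSDS-shACOT12 libraries that share a number, every pair over 0.1, and -0.383 to -0.018 in the 6 pairs that do not. The same-numbered SSDS pairs were therefore also summed and tested as 3 against 6, chosen after seeing the data. Pairs of different number across the classes reached r of 0.279, for SSDS-GFP 3 with Control 2. Libraries of 1 group differed beyond sampling noise, with a chi-square per gene of 7.13 to 86.6. The alternatives were other scalings, filters, models and units (DESeq2 1.42.0, limma 3.58.1), leaving out libraries, and each class against 1 group of the other. Promoter sequences and gene names came from RefSeq and the deposited annotation.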

Additional observations from a re-analysis of the deposited data

Results flagged for a closer look

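Log2 CPM of the 41 genes named and 5 values of whole libraries were looked at in the 6 SSDS libraries and in the 6 others, 92 groups in all, for a library whose gap to its nearest neighbour took more of the group's range than Dixon's critical value for 6 values. Chance alone gives such a library in about 1 of 20 groups, and 7 of the 92 had one. In the SSDS class the gap took 0.67 of the range for Jcad, with SSDS-shACOT12 3 lowest, 0.647 for Rpl37rt, with SSDS-shACOT12 3 highest, and 0.636 for Stx3, with SSDS-GFP 2 highest. Among the libraries without virus it took 0.678 for Fos and 0.662 for 1700016P03Rik, with Control 2 lowest in both, and 0.634 for Jun, with CSDS 2 highest. The share of counts from nuclear retained noncoding RNAs was the other one, at 0.648 of the range with CSDS 3 highest. No explanation was tested.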

How the results depend on the processing

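The 71 higher and 31 lower calls moved with most choices. The 41 named genes had 697 values under alternatives other than leaving out 1 library. Of these, 491 stayed on their side of the threshold, 206 lost the call and 0 reversed. Most of the 41 genes had no overlap between the classes in these same libraries. A reversal was therefore hardly possible, and the 0 says little. Calls were 795 higher and 466 lower with DESeq2's Wald test, 733 and 775 with no filter on low counts, 2266 and 2174 with limma-voom and library quality weights, and 42 and 20 with the length trend removed. The share of calls that were higher was 69.6% in the main test, 48.6% with no filter and 51% with voom weights. Higher calls numbered 46 without mitochondrial genes, and lower calls 20 with 2 classes as the only factor and 53 on log2(FPKM + 1). With an absolute log2 fold change of at least 1, 9 higher and 9 lower genes were called, and 13 higher and 25 lower genes had no overlap. Without the 3 SSDS libraries that stood apart, calls were 307 and 234, and genes without overlap 813 higher and 625 lower. SSDS-GFP alone against the 6 others gave 14 and 1 calls, with 629 and 412 genes without overlap, and SSDS-shACOT12 alone 8 and 1, with 808 and 712. All 6 SSDS libraries against Control alone gave 313 and 213 calls, with 1233 and 873 without overlap, and against CSDS alone 1 and 2, with 371 and 269. With same-numbered SSDS libraries summed, an alternative added after seeing the data, 22 higher and 5 lower genes were called and 607 and 432 had no overlap. Fewer libraries make no overlap easier to reach, and the cause of the other shifts was not tested.

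Leaving out 1 library at a time gave 7 to 1604 genes called higher, 2 to 1676 called lower, 224 to 554 without overlap higher and 131 to 373 lower, and a difference in the slope on gene length of -0.0588 to -0.0387 (exact permutation p = 0.0173 to 0.0758). The total reached 3280 without SSDS-shACOT12 2 and 1157 without SSDS-GFP 2. It was 9 without CSDS 3 or Control 1, 10 without CSDS 1 and 14 without SSDS-GFP 1. Of 492 values of the named genes in these fits, 233 stayed on their side of the threshold and 259 lost the call. With the replicate number as a block, 24 genes were called higher and 6 lower. Across the classes the numbers do not pair the libraries: the deviations of same-numbered libraries had r of -0.259 to 0.148, with 2 of 12 over 0.1. With at least 50 counts in 3 libraries, 107 genes were called.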

Other observations

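The genes in this section were chosen after their values were seen. The chaperonin TRiC, a ring of 8 subunits that folds actin and tubulin in the cytosol, had 4 subunit genes without overlap, all higher (1.25% of all genes), and 0 called by edgeR's quasi-likelihood test. Cct7 had 221 to 321 CPM in the SSDS class and 184 to 218 CPM in the others (log2 fold change 0.41 ± 0.10, adjusted p = 0.0584). Cct4, Cct3 and Tcp1 had log2 fold changes of 0.32, 0.31 and 0.19 (adjusted p = 0.0629, 0.0694 and 0.164). The other 4 overlapped, with 0.29 for Cct8, 0.19 for Cct5, 0.15 for Cct2 and -0.06 for Cct6a.

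Nfya, a subunit of the factor NF-Y that binds the CCAAT box, was called higher, with 24.96 to 30.7 CPM in the SSDS class and 15.3 to 21.4 CPM in the others (log2 fold change 0.66 ± 0.10, adjusted p = 0.0145). Serpinh1 and P4ha1, a collagen chaperone and a collagen hydroxylase of the endoplasmic reticulum, rose by 0.87 ± 0.14 and 0.57 ± 0.08 (adjusted p = 0.0197 and 0.0144), and Serpinh1 overlapped between the classes. Among potassium channel genes Kcnj3 (log2 fold change -0.70 ± 0.15), Kcnk2 (-0.57 ± 0.14) and Kcna4 (-0.55 ± 0.13) did not overlap and were not called (adjusted p = 0.0518 for Kcnj3 and 0.0574 for the other 2). The list of 42 potassium channel genes had 3 without overlap lower and 1 higher (0.721% and 1.25% of all genes). Its median was -0.03, with 19 members above 0 and 23 below, and 0 called by edgeR's quasi-likelihood test. The transferrin receptor Tfrc had 78.2 to 138 CPM in the SSDS class and 145 to 170 CPM in the others (log2 fold change -0.57 ± 0.14, adjusted p = 0.0574).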
